A study of Mus musculus with 12 samples.

Results

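Macrophages of meKO mice on a high-fat diet (HFD) were compared with those of wild-type (WT) mice on the same diet. The comparison used every gene of the count table and the 6 libraries whose titles carry HFD, 3 per genotype, of 12 libraries in all. The groups were WT HFD and meKO HFD, and the WT chow and meKO chow libraries entered the fit to share the estimate of spread and to give values beside those on HFD. Every mouse of all 4 groups had received the vector AAV8PCSK9 at 8 weeks of age, which lowers the hepatocyte LDL receptor, so the controls carried it too. After 4 weeks, thioglycolate drew macrophages into the peritoneum and they were collected by lavage. The labels describe 8 mice per genotype, 4 of them on HFD. Going by the title of the series, meKO concerns protein kinase C epsilon of myeloid cells (gene Prkce). The labels name neither the Cre line nor the promoter behind this allele. Library numbers are only names, and nothing links a WT library with a meKO library.

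Protein kinase C epsilon is a kinase that is switched on by diacylglycerol and does not need calcium. In macrophages it acts downstream of Toll-like receptors and phorbol esters. Elicited peritoneal macrophages take up lipoproteins, store cholesterol esters in droplets and export cholesterol through ABC transporters, and they are widely used as a stand-in for the foam cells of the arterial wall. The genes followed here therefore include those of sterol handling, of inflammation and of the lysosome, and markers of the other cells that a lavage can hold.

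Total counts of the 6 HFD libraries ran from 25844958 to 36355557. Levels are given as CPM, the count of a gene scaled to the library's effective size, which allows a gene to be compared between libraries and not with other genes. The correlation of log2 CPM between replicates was 0.988 to 0.990 in WT HFD and 0.978 to 0.987 in meKO HFD (Pearson's r, across genes). The 10 most abundant genes took 18.7% to 20.4% of the counts, and TMM scaling factors ran from 0.935 to 1.01. Ddx3y, a Y-linked gene, stood between 84.7 and 96.2 CPM in the 6 libraries, and Xist was not among the genes listed. The 12 macrophage markers summed to 36950 to 44058 CPM in WT HFD against 22929 to 24882 CPM in meKO HFD. Without Lyz2 the other 11 summed to 5783 to 6468 and 6017 to 6695 CPM, so the gap lay in that gene.

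Prkce stood at 2.01, 2.89 and 2.53 CPM in WT HFD and at 1.78, 0.954 and 1.51 CPM in meKO HFD. The groups did not overlap, and the highest meKO library lay close under the lowest WT library. The log2 fold change was -0.80 ± 0.31 (SE, n = 3 against 3), with an unadjusted p of 0.0238 in edgeR's quasi-likelihood test and an adjusted p of 0.989. The counts cover the whole gene and do not say which exons were read. Of 22 other analyses, 0 brought Prkce past the threshold on HFD, and the smallest adjusted p among them was 0.137. The 22 include a fit without a low-count filter, which repeated the main one because the filter had dropped no gene. On chow Prkce stood at 4.27, 4.44 and 2.35 CPM in WT and at 1.42, 0.950 and 1.62 CPM in meKO, again without overlap. Its log2 fold change on chow was -1.47 ± 0.31 (SE; edgeR unadjusted p = 3.15e-04, adjusted p = 0.0794). The difference between the diets was 0.68 ± 0.44 (edgeR adjusted p = 0.812). Lyz2, the lysozyme made in bulk by macrophages and neutrophils, stood at 33351, 30482 and 37662 CPM in WT HFD and at 16293, 18865 and 18157 CPM in meKO HFD. Every meKO library was thus lower than every WT library. The log2 fold change of Lyz2 was -0.93 ± 1.23 (SE; edgeR adjusted p = 0.999). The spread behind that error is shared with chow, where meKO chow replicate 2 held 69.3 CPM of Lyz2. With the 6 HFD libraries alone the adjusted p was 0.0136.

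Of 12339 genes tested, 10 passed an adjusted p under 0.05 (0.081%), 6 higher (0.0486%) and 4 lower (0.0324%) in meKO HFD. At an unadjusted p under 0.05 there were 563 (4.56%), 350 higher (2.84%) and 213 lower (1.73%), a share below the threshold itself. The ranges of the groups did not overlap for 1271 genes (10.3%), 673 with all meKO libraries higher (5.45%) and 598 with all lower (4.85%). Changes of at least 2-fold in either direction were fitted for 147 genes, 8 of them among the 10 that passed. The 6 higher genes were Rpl29, the unnamed gene Entrez 100504629, S100a9, Abhd14b, Dusp7 and Alas1. The 4 lower genes were Rab3d, Hyal1, Nudt16 and the unnamed gene Entrez 100503055. These p-values measure the spread between the libraries of this series.

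**Figure D1:**
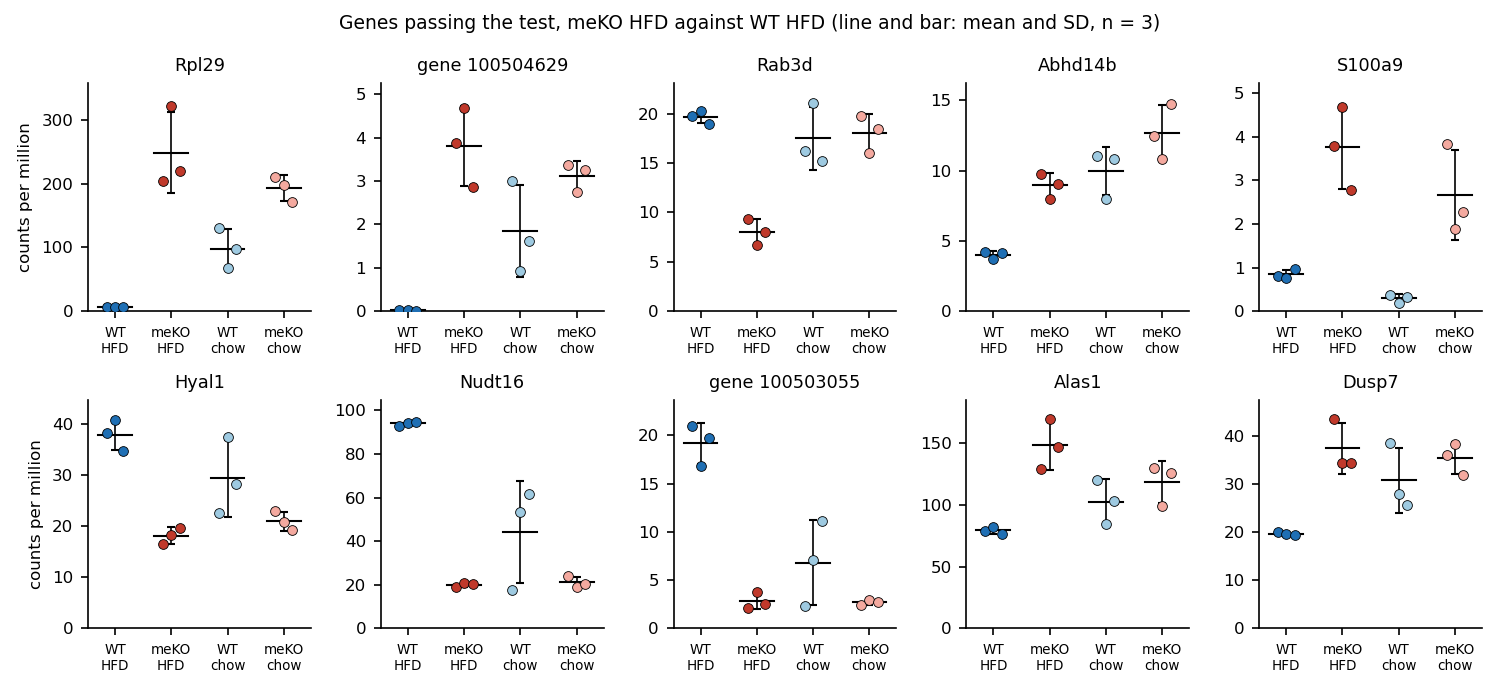
CPM in each library (points) for the 10 genes that passed the test, with the mean and SD of 3 libraries per group (line and bar) and a separate linear axis from 0 for each gene. The WT HFD points lie apart from the meKO HFD points in all 10 panels, and for Nudt16 and Entrez 100503055 the WT chow points are spread between the 2 levels.

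Rpl29 encodes a protein of the large ribosomal subunit and lies at chr9:106428889-106431568 (GRCm38.p6). It stood at 6.51, 6.89 and 6.65 CPM in WT HFD and at 204, 322 and 221 CPM in meKO HFD. The WT HFD libraries were low and close together, and the chow libraries of both genotypes sat far above them, at 130, 67.2 and 97.5 CPM in WT chow and 211, 197 and 171 CPM in meKO chow. The log2 fold change on HFD was 5.22 ± 0.25 (SE; edgeR adjusted p = 1.03e-07). This value became much smaller when the counts of a copy of the gene were added, as given below. The part of read assignment in it was not tested. Gm8210, a pseudogene of Rpl29 on chromosome 1, had the opposite layout. It stood at 172, 149 and 178 CPM in WT HFD and at 11.9, 16.6 and 10.2 CPM in meKO HFD (log2 fold change -3.69 ± 0.68; edgeR unadjusted p = 4.05e-04, adjusted p = 0.200). Gm8210 was highest in the 3 libraries in which Rpl29 was lowest.

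The first 300 bases of the Rpl29 coding sequence are shown beside those of Gm8210 because reads must be assigned between them. Both are from GENCODE M21 on GRCm38, with Rpl29 at chr9:106429454-106431568 and Gm8210 at chr1:43189156-43189638, both on the plus strand, and capitals mark the bases that differ.
Rpl29: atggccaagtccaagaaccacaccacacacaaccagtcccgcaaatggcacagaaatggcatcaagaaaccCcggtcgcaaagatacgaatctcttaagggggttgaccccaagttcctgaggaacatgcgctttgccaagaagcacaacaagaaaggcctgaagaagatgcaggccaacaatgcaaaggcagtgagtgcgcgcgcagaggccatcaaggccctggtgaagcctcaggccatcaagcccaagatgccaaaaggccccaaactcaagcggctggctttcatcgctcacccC
Gm8210: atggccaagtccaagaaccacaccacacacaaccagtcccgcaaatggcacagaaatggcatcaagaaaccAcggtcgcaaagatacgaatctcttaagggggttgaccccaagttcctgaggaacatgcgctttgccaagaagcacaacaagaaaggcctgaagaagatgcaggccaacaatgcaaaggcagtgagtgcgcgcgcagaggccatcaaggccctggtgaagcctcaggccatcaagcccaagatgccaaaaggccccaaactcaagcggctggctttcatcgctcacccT
The whole sequences are 483 bases long with the stop codon, and 480 of these are identical (99.4%). Counted from the first base of the start codon, the differences from Rpl29 to Gm8210 are C72A, C300T and T423C, the last of which lies beyond the stretch shown. The longest stretch with no difference is 227 bases. All 50-base words of Gm8210 also occur in Gm13841, another pseudogene, which was not among the genes listed. Of the 50-base words of the longest Rpl29 transcript, 47.9% occur in transcripts of other genes. How the reads were assigned is not given in the sources used here.

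With the counts of Rpl29 and Gm8210 added, an alternative chosen after seeing the data, the sum was 178, 156 and 185 CPM in WT HFD against 216, 339 and 231 CPM in meKO HFD. The groups still did not overlap, at a distance far smaller than that of Rpl29 alone. The log2 fold change of the sum was 0.60 ± 0.18 (SE), or 1.51-fold (edgeR unadjusted p = 0.00435, adjusted p = 0.571). On chow the sum had a log2 fold change of 0.50 ± 0.18 (adjusted p = 0.159), and the difference between the diets was 0.10 ± 0.25 (adjusted p = 0.933). The rise of Rpl29 is therefore reported as uncertain: it passed in 22 of 22 other analyses with the copies apart, and did not pass with them summed. The 22 include the unfiltered fit, which repeated the main one.

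**Figure D2:**
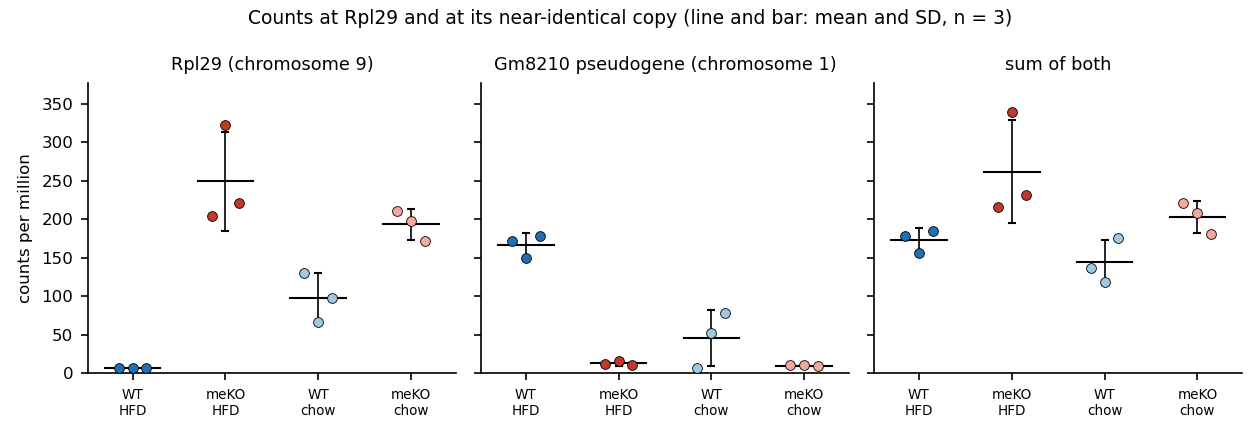
CPM of Rpl29, of the Gm8210 pseudogene and of their sum in each library (points; line and bar are mean and SD of 3 libraries) on a shared linear axis from 0. Rpl29 is near 0 and Gm8210 near 166 CPM in WT HFD, the reverse holds in meKO HFD, and the sums lie much closer together.

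The other 9 genes were examined for the same kind of sharing. Among the 7 of them with a symbol, 6 had 0% of their 50-base words in other genes, namely S100a9, Rab3d, Nudt16, Alas1, Dusp7 and Abhd14b. Hyal1 shared 63.2% of its words, most of them with Naa80, a neighbour whose gene model runs into it. The unnamed genes could not be looked up in GENCODE by name.

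Entrez 100504629 had no symbol or position in the tables used. It had at most 1 count in any WT HFD library and stood at 3.88, 4.69 and 2.86 CPM in meKO HFD. The chow libraries held 3.0, 0.915 and 1.62 CPM (WT) and 3.37, 2.74 and 3.25 CPM (meKO), so WT HFD was the group that stood apart. With WT HFD set to 3 counts per library, meKO HFD was at least 39.3-fold higher (edgeR adjusted p = 1.14e-04).

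S100a9 lies at chr3:90692630-90695721 and encodes a subunit of calprotectin, a calcium-binding protein that neutrophils and young monocytes hold in large amounts. Its level was 0.809, 0.757 and 0.963 CPM in WT HFD against 3.80, 4.69 and 2.78 CPM in meKO HFD. All 3 meKO libraries were above all 3 WT libraries on chow as well, where WT held 0.368, 0.196 and 0.331 CPM and meKO 3.83, 1.87 and 2.28 CPM. The log2 fold change on HFD was 2.15 ± 0.32 (SE; edgeR adjusted p = 0.0229). On chow it was 3.13 ± 0.36 (edgeR adjusted p = 0.00348), and the difference between the diets was -0.99 (adjusted p = 0.797). S100a9 was not given a value where 10 counts were required in every library. The RefSeq sequence (GRCm38.p6) of the 250 bases before the start of S100a9, chr3:90695722-90695971 on the minus strand, is shown because it was the 1 window among the 7 called genes with an entry that held a match to either motif searched. Capitals mark the match to TTGCNNAA, a form of the C/EBP motif.
S100a9: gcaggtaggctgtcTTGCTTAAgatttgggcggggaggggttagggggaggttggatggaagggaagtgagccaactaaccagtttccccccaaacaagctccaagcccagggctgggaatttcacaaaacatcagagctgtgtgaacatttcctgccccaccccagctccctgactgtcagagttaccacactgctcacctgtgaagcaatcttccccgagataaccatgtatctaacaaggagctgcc
That motif was searched on both strands and occurs in 9.56% of the 32851 windows of this length, and GAGGAA, the core read by PU.1, in 23.3%. The 2 motifs do not overlap in this window, since it holds 0 matches to GAGGAA.

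S100a8, which encodes the partner subunit, stood at 18.1, 16.6 and 17.9 CPM in WT HFD and at 13.4, 26.4 and 22.1 CPM in meKO HFD. These ranges overlapped (log2 fold change 0.23 ± 0.24; edgeR adjusted p = 0.999). Of 20 neutrophil markers, 11 were listed and 4 of them had an unadjusted p under 0.05, all higher: S100a9, Retnlg, Cxcr2 and Ltf. That was 36.4% of the 11, beside 4.56% of all genes tested, and it counts S100a9, which had itself passed. Of the 11 markers, 9 had a positive and 2 a negative value, beside 6654 and 5685 of all 12339 genes. Retnlg, a resistin-like secreted protein, stood at 3.43, 5.10 and 4.96 CPM in WT HFD against 9.78, 18.7 and 16.7 CPM in meKO HFD (log2 fold change 1.74 ± 0.30; edgeR adjusted p = 0.0548). Ltf, which encodes lactoferrin, lies on chromosome 9 within 5 Mb of Hyal1, and its ranges overlapped. Cxcr2, a chemokine receptor of neutrophils, stood at 0.324, 0.344 and 0.271 CPM against 0.683, 0.801 and 0.556 CPM (1.12 ± 0.34; edgeR adjusted p = 0.651). The 11 listed markers summed to 173 to 180 CPM in WT HFD against 193 to 213 CPM in meKO HFD, while Ly6g, Camp, Ngp, Mpo and Elane were not listed. The part of other cells in the S100a9 difference was not tested. In RNA from a whole lavage, fewer cells of a type and less RNA per cell cannot be told apart.

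Markers of further cell types were set beside these. B cell markers (14 of 16 listed) summed to 136 to 175 CPM in WT HFD against 155 to 263 CPM in meKO HFD, with Fcmr and Cd22 higher at an unadjusted p under 0.05. T and NK cell markers (16 of 18) summed to 623 to 658 and 656 to 814 CPM, with Lck and Ncr1 higher at that level. Eosinophil markers (4 of 9, with Prg2 and Epx not listed) summed to 16.3 to 24.6 and 24.0 to 44.7 CPM, with the receptor Ccr3 higher at that level. The ranges of these 3 sums overlapped, and 0 of their markers passed after adjustment. Dendritic cell markers summed to 33.3 to 45.1 and 39.3 to 61.4 CPM, mast cell markers to 233 to 248 and 205 to 297 CPM, resident large peritoneal macrophage markers to 1910 to 3056 and 1474 to 2811 CPM, and mesothelial and fibroblast markers to 117 to 170 and 140 to 181 CPM. Of 18 mesothelial and fibroblast markers, 17 had a positive value and 2, Pdgfra and Pdgfrb, an unadjusted p under 0.05. Pdgfrb passed with the 6 HFD libraries alone (edgeR adjusted p = 0.00445). Positive values were not particular to this list: 15 of 16 T and NK, 11 of 12 dendritic and 4 of 4 eosinophil markers had them. So did 9 of 14 B cell, 5 of 10 mast cell and 9 of 17 resident macrophage markers, and 6654 of all 12339 genes. The part of these cells in the results was not tested.

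Rab3d encodes a small GTPase of secretory granules and vesicle exocytosis and lies at chr9:21907491-21918199. It stood at 19.8, 20.2 and 19 CPM in WT HFD and at 9.34, 6.68 and 8.06 CPM in meKO HFD. Here meKO HFD was the group that stood apart, since the chow libraries held 16.2, 21.1 and 15.2 CPM (WT) and 19.8, 16.0 and 18.4 CPM (meKO). Rab3d fell by 1.29 on the log2 scale (SE 0.16; edgeR adjusted p = 0.00486). On chow its log2 fold change was 0.05 ± 0.15, and the test of the difference between the diets gave -1.34 ± 0.22 (edgeR adjusted p = 0.0718). Of 41 Rabs and effectors, 40 were tested, and besides Rab3d only Rab4a and Rab7b had an unadjusted p under 0.05, both higher. Rab7b, a Rab of late endosomes, stood at 298, 292 and 315 CPM in WT HFD against 356, 392.3 and 391 CPM in meKO HFD (0.33 ± 0.11; edgeR adjusted p = 0.805).

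The remaining named genes that passed lay within 2.45 Mb of each other on chromosome 9, the span that also holds Rpl29. Nudt16 (chr9:105129332-105133133), which encodes a hydrolase of inosine nucleotides and RNA caps, stood at 93.1, 94.4 and 94.7 CPM in WT HFD and at 19, 20.6 and 20.2 CPM in meKO HFD. Nudt16 fell by 2.24 (log2; SE 0.33; edgeR adjusted p = 0.0229). Its WT chow libraries did not form a tight group, with replicate 1 at 17.6 CPM and the others at 53.5 and 61.6 CPM, and meKO chow stood at 23.9, 19.2 and 20.4 CPM. The unnamed gene Entrez 100503055 showed the same layout: 21.0, 16.8 and 19.8 CPM in WT HFD against 2.13, 3.78 and 2.54 CPM in meKO HFD. On chow it held 2.26, 7.05 and 11.1 CPM in WT and 2.44, 2.99 and 2.73 CPM in meKO. It fell by 2.78 (log2; SE 0.42; edgeR adjusted p = 0.0229). Gm8210 shared this layout too, with 7.07 CPM in WT chow replicate 1 and 51.7 and 78.1 CPM in the others.

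Hyal1 (chr9:107576950-107581699) encodes a lysosomal enzyme that cuts hyaluronan. It stood at 38.2, 40.7 and 34.7 CPM in WT HFD and at 16.4, 18.3 and 19.7 CPM in meKO HFD, and fell by 1.063 (log2; SE 0.16; edgeR adjusted p = 0.0229). The neighbouring Naa80, with which it shares words, stood at 20.3, 23.6 and 20.5 CPM against 16.9, 15.2 and 17.1 CPM. Among 43 lysosomal hydrolases and cathepsins, Hyal1 was the single member that passed. Ctsl and Acp5 were higher at an unadjusted p under 0.05. Acp5, the tartrate-resistant acid phosphatase, stood at 215, 187 and 193 CPM in WT HFD against 278, 326 and 304 CPM in meKO HFD (0.61 ± 0.12; edgeR adjusted p = 0.122), and Ctsl, a cysteine protease of the lysosome, had a log2 fold change of 0.35 ± 0.12 (adjusted p = 0.890).

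Alas1 (chr9:106233455-106247954), the first enzyme of heme synthesis, rose from 79.1, 82.2 and 76.5 CPM in WT HFD to 129, 169 and 147 CPM in meKO HFD. Its log2 fold change was 0.90 ± 0.15 (SE; edgeR adjusted p = 0.0346), and of the 29 tested genes on the iron and heme list, which does not hold Trf, it was the 1 with an unadjusted p under 0.05. Dusp7 (chr9:106368560-106375724), a phosphatase that acts on MAP kinases, rose from 20.0, 19.6 and 19.3 CPM to 43.6, 34.5 and 34.4 CPM (0.93 ± 0.15; adjusted p = 0.0346). Abhd14b (chr9:106447737-106452923), an alpha/beta hydrolase, rose from 4.17, 3.68 and 4.12 CPM to 9.75, 8.01 and 9.05 CPM (1.16 ± 0.17; adjusted p = 0.0229). In all 3 the WT HFD libraries were below every other library of the series.

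Of the 8 genes that passed and had a position, 7 lay on chromosome 9, 6 of them within 2.45 Mb and Rab3d far from these. Within 5 Mb of Nudt16, Alas1, Dusp7, Rpl29, Abhd14b or Hyal1 there were 122 tested genes, of which 28 had an unadjusted p under 0.05 (23.0%) and 41 had groups that did not overlap (33.6%). Within 5 Mb of Rab3d the counts were 6 and 12 of 66, and on the rest of chromosome 9 they were 25 (5.38%) and 44 (9.46%) of 465. The windows were placed on genes that passed, so these shares are a description. Of the 28 genes, 22 had the same sign on chow (78.6%), near the share of all genes at that p (402 of 563, 71.4%), and of the 6 around Rab3d 1 had. Further genes of the larger window, chosen after their values were seen, include Mapkapk3, a kinase of the p38 pathway (0.75 ± 0.13; edgeR adjusted p = 0.0548), Parp3, a DNA repair enzyme (0.68 ± 0.15; 0.218), and Trf, which encodes transferrin (-0.78 ± 0.19; 0.370). Acp3, an acid phosphatase gene in the same window, stood at 0.550, 0.448 and 0.662 CPM in WT HFD and at 5.71, 3.51 and 5.28 CPM in meKO HFD (3.11 ± 0.54; edgeR adjusted p = 0.0548).

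**Figure D3:**
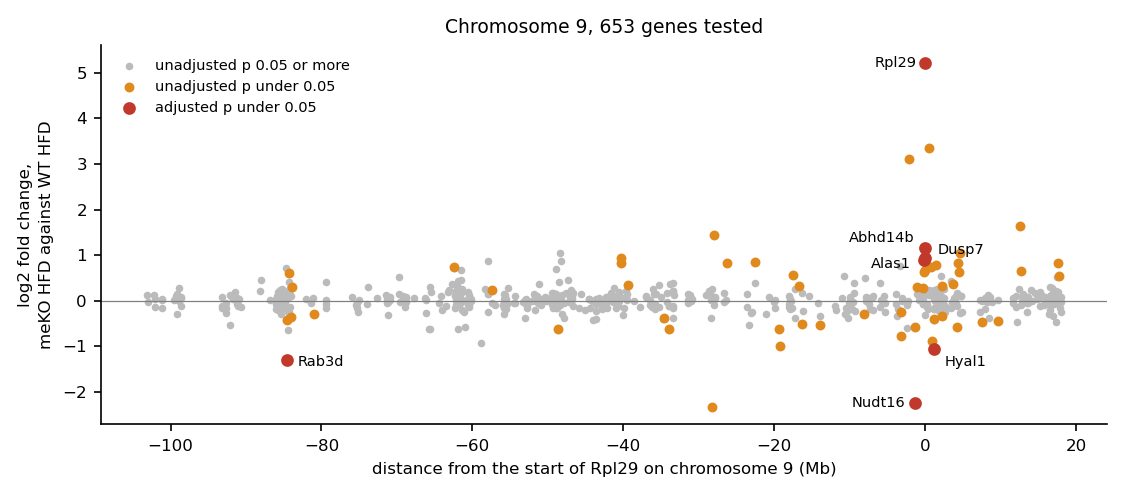
Log2 fold change of each of 653 tested genes of chromosome 9, meKO HFD against WT HFD, by distance from the start of Rpl29 in Mb; colours give the unadjusted and adjusted p. Of the 7 red points, 6 stand near 0 Mb and Rab3d stands alone far to the left.

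Taken whole, chromosome 9 had 59 of 653 genes at an unadjusted p under 0.05 (9.04%) and 97 with groups that did not overlap (14.9%). Both shares were larger on chromosome 17, with 71 of 651 (10.9%) and 134 (20.6%), and 0 genes that passed. On the remaining autosomes and X, the share at that p was between 2.59% and 5.40%. Within 5 Mb of H2-Eb1 on chromosome 17, a window chosen after values were seen, the counts were 27 (15.3%) and 51 (28.8%) of 177 genes. Elsewhere on that chromosome they were 44 (9.28%) and 83 (17.5%) of 474. Prkce also lies on chromosome 17, and 2 of the 29 genes within 5 Mb of it, Prkce included, had an unadjusted p under 0.05. Of the 46 genes within 5 Mb of Lyz2 on chromosome 10, 3 did.

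Among genes that did not pass and had a mean of at least 1 CPM over the HFD libraries, the 8 largest positive log2 fold changes with an unadjusted p under 0.05 and separate groups were those of H2-Eb1, Rps18, H2-T23, Acp3, Dynlt1b, Hddc3, H2-T22 and 1700006J14Rik. H2-Eb1, a class II histocompatibility chain, stood at 6.80, 6.58 and 6.98 CPM in WT HFD and at 125, 281 and 138 CPM in meKO HFD. On chow it was 194, 8.88 and 11.4 CPM in WT and 9.14, 130 and 388 CPM in meKO, so that high and low libraries occurred in both genotypes. The log2 fold change on HFD was 4.74 ± 1.59 (SE; edgeR adjusted p = 0.940). H2-T23, a nonclassical class I gene, had the same layout, with 35.6, 33.9 and 43.3 CPM against 260, 608 and 295 CPM on HFD, and 197, 29.5 and 38.4 CPM (WT) and 40.1, 250 and 505 CPM (meKO) on chow (3.37 ± 1.02; adjusted p = 0.778). Rps18, H2-T22, Dynlt1b and Hddc3 were likewise high in WT chow replicate 1 and meKO chow replicates 2 and 3 and low in the other chow libraries. Hddc3, a phosphohydrolase gene on chromosome 7, stood at 0.939, 0.689 and 1.14 CPM against 6.78, 7.21 and 6.51 CPM on HFD (2.88 ± 0.58; adjusted p = 0.185). With the HFD libraries alone, all 8 genes passed, with edgeR adjusted p from 2.41e-04 (H2-Eb1) to 0.0416 (1700006J14Rik). That fit leaves out the chow libraries, whose spread entered the p-values above.

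Some of these genes have copies. Of the 50-base words of Dynlt1b, a dynein light chain, 83.2% occur in other genes, of those of H2-T22 35.8% and of those of Rps18 32.2%, against 0% for H2-Eb1 and Hddc3. With Dynlt1a, Dynlt1b, Dynlt1c and Dynlt1f added, the sum stood at 27.1, 25.7 and 27.7 CPM in WT HFD against 39.1, 72.3 and 54.3 CPM in meKO HFD. That was a log2 fold change of 1.04 ± 0.26, against 2.99 ± 0.93 for Dynlt1b alone (edgeR adjusted p = 0.388 and 0.809). H2-T10, which shares words with H2-T22 and was chosen after its values were seen, stood at 59.2, 54.0 and 67.3 CPM in WT HFD against 36.7, 12.1 and 29.7 CPM in meKO HFD, the opposite direction to H2-T22 (14.6, 12.4 and 14.6 against 76.7, 162 and 59.6 CPM).

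By the same limits, the 8 largest negative values were those of Gm8210, Tpsab1, Fam135a, Gt(ROSA)26Sor, A930015D03Rik, Noxo1, Gm10499 and Ston2. Tpsab1, a mast cell tryptase gene that RefSeq lists as a transcribed pseudogene, stood at 14.9, 28.3 and 12.2 CPM in WT HFD against 1.64, 1.34 and 1.35 CPM in meKO HFD (-3.66 ± 1.42; edgeR adjusted p = 0.999). On chow Tpsab1 held 0.792, 10.4 and 19.2 CPM in WT and 21.9, 14.4 and 0.0691 CPM in meKO, so high and low libraries occurred in both genotypes. Its neighbour Tpsb2 did not share the difference on HFD, with 25.6, 22 and 23.2 CPM in WT HFD against 28.6, 38.5 and 29.7 CPM in meKO HFD. Gt(ROSA)26Sor, a noncoding transcript of the Rosa26 locus, stood at 89.1, 50.7 and 46.6 CPM in WT HFD against 17.9, 31.0 and 17.4 CPM in meKO HFD (-1.49 ± 0.28; adjusted p = 0.0923). On chow it ran the other way, at 10.6, 9.96 and 13.9 CPM in WT and 23.8, 28.2 and 16.9 CPM in meKO, and the difference between the diets was -2.50 (adjusted p = 0.0718). Noxo1, an organizer of NADPH oxidase, had a log2 fold change of -1.38 ± 0.38 (adjusted p = 0.468). With the HFD libraries alone, Gm8210 (edgeR adjusted p = 1.32e-05) and Tpsab1 (0.00126) passed, and the others of these 8 did not.

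The effect of genotype was set beside that on chow, which shares no library with it. Of the 10 genes that passed on HFD, 9 had the same sign on chow. The share was 71.4% of the 563 genes at an unadjusted p under 0.05 on HFD and 64.5% of all genes tested. Of the 10 genes, 6 lie within 2.45 Mb of each other on chromosome 9. The median size of the log2 fold change of the 10 genes was 1.72 on HFD, by which they were chosen, and 0.62 on chow. Over all genes tested it was 0.11 on HFD and 0.21 on chow. On chow 10 genes passed (0.081%) and 2447 had an unadjusted p under 0.05 (19.8%), beside the 563 on HFD. The chow libraries differed more in how their levels ran with gene length: the rank correlation, across genes, of length with a library's deviation from the mean of the 12 libraries was 0.34 and 0.36 in WT chow replicates 1 and 2, 0.02 in replicate 3 and -0.11 to 0.13 in meKO chow, against -0.27 to -0.08 in the 6 HFD libraries. The part of this in the count on chow was not tested. The interaction of genotype and diet passed for 2 genes (0.0162%), Rpl29 and Entrez 100504629, and 756 had an unadjusted p under 0.05 (6.13%). For Rpl29 the difference was 4.24 ± 0.31 (SE; edgeR adjusted p = 2.53e-05), which is the value that became 0.10 when Gm8210 was added.

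**Figure D4:**
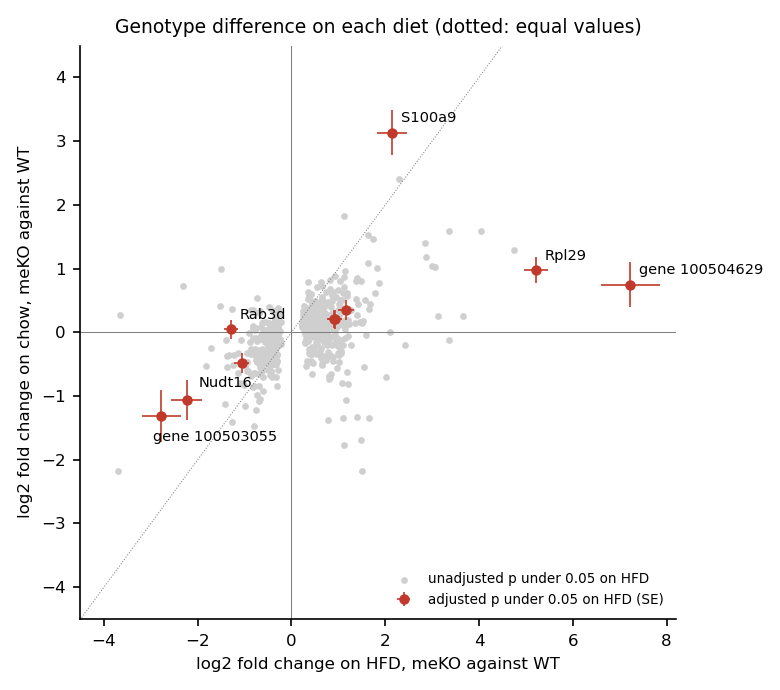
Log2 fold change of meKO against WT on HFD (x axis) and on chow (y axis), with SE bars for the 10 genes that passed on HFD (red) and the 563 genes at an unadjusted p under 0.05 on HFD (grey); the dotted line marks equal values. S100a9 lies above that line at 2.15 and 3.13, and Rab3d lies near 0 on the chow axis.

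The function lists were described by counts and medians, beside a median log2 fold change of 0.02 over all genes and the 4.56% of genes at an unadjusted p under 0.05. Over all 12339 genes, 6654 had a positive and 5685 a negative value. Of the 14 tested protein kinase C genes, 0 passed, and the list's median was -0.08, with Prkce lower at an unadjusted p under 0.05. Of 23 genes of diacylglycerol metabolism, Plcd1 was higher and Plcb1 lower at that level. Both encode phospholipases C, which release diacylglycerol, and their log2 fold changes were 0.65 ± 0.25 and -0.56 ± 0.23 (edgeR adjusted p = 0.978 and 0.999).

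Sterol genes showed little difference between the genotypes on HFD. None of 21 cholesterol synthesis genes and none of 18 genes of SREBP sensing and sterol import had an unadjusted p under 0.05 (medians 0.05 and -0.05). Of 20 LXR targets and efflux genes, 1 did: Plin2, a lipid droplet coat protein, at 3160.2, 2686 and 2953 CPM in WT HFD against 3518, 3661 and 3724 CPM in meKO HFD (0.31 ± 0.11; edgeR adjusted p = 0.820). Its relative Plin3 stood at 114, 114 and 117 CPM against 134, 139 and 150 CPM (0.29 ± 0.09; adjusted p = 0.632). Every meKO library was above every WT library for both perilipins. Abca1, which loads cholesterol onto apolipoprotein A-I, had a log2 fold change of -0.17 ± 0.25, and Abcg1, which exports cholesterol to HDL, of 0.06 ± 0.18. Apoe and the scavenger receptor Cd36 had values of 0.06 ± 0.16 and 0.07 ± 0.15. In these 4 genes the ranges of the groups overlapped. Of 22 fatty acid oxidation genes, Acadl and Slc25a20 were higher at an unadjusted p under 0.05, and of 16 fatty acid synthesis genes 0 were. Acadl, a mitochondrial acyl-CoA dehydrogenase, stood at 77.8, 88.3 and 79.9 CPM against 113, 98.2 and 130 CPM (0.47 ± 0.13; adjusted p = 0.473). Slc25a20, the carnitine carrier, lies in the larger chromosome 9 window.

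Of 20 Trem2 lipid-associated macrophage genes, 17 had a positive value and 2, Ctsl and Plin2, an unadjusted p under 0.05 (median 0.13). The median was -0.01 without meKO HFD replicate 2. Of 15 scavenger and lipoprotein receptors only Marco, a receptor for bacteria and modified lipoproteins, reached that p, at 27.9, 41.6 and 59.4 CPM in WT HFD against 69.1, 49.7 and 103 CPM in meKO HFD (0.78 ± 0.26; edgeR adjusted p = 0.809). Of 24 genes of apoptotic cell clearance, Pros1, a bridging ligand of the TAM receptors, was lower at that p (-0.62 ± 0.24; adjusted p = 0.978).

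Inflammatory genes were mixed. Of 37 interferon-stimulated genes, 32 had a negative value and 3 an unadjusted p under 0.05, the antiviral Oas2 and the guanylate-binding proteins Gbp3 and Gbp5. The list's median was -0.14, the lowest of the 36, and became 0.04 without WT HFD replicate 3. Gbp5 stood at 2.78, 2.38 and 2.80 CPM in WT HFD against 1.94, 1.11 and 1.55 CPM in meKO HFD (-0.78 ± 0.28; edgeR adjusted p = 0.924). Of 32 genes of Toll-like receptors and NF-kB, Rel and Nfkbiz were lower and Tlr9 higher at that p, and of 20 inflammasome genes Nlrp3 was lower. Nlrp3, the sensor of the inflammasome, stood at 4.30, 4.06 and 3.40 CPM against 3.50, 2.75 and 2.30 CPM, so its ranges overlapped. Tlr9, a receptor for DNA, lies in the larger chromosome 9 window and stood at 1.26, 1.55 and 0.782 CPM against 3.69, 1.87 and 2.50 CPM (1.18 ± 0.38; adjusted p = 0.754). Of 17 cytokines Csf1, the growth factor of macrophages, was higher at that p, at 2.95, 2.96 and 3.19 CPM against 4.13, 4.04 and 4.37 CPM (0.46 ± 0.17; adjusted p = 0.952). Of 17 chemokines Ccl8 and Cxcl13 were higher at that p. Ccl8, a monocyte attractant, stood at 2.75, 3.24 and 1.96 CPM against 4.29, 11.6 and 8.85 CPM (1.63 ± 0.50; adjusted p = 0.651). Of 21 complement genes C3, C1ra and Cd59a were higher at that p, and C3, the hub of the cascade, stood at 24.9, 19.3 and 17.5 CPM against 42.3, 26.6 and 35.1 CPM (0.76 ± 0.23; adjusted p = 0.651).

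Housekeeping groups differed by small amounts. Of 45 respiratory chain and ATP synthase genes, 44 had a positive value, with a median of 0.09 and 1 at an unadjusted p under 0.05, Ndufb10. Without meKO HFD replicate 2 that median was -0.08. Of 62 cytosolic ribosomal protein genes, 53 had a positive value with a median of 0.09, and Rpl29, Rps18 and Rpl3 reached that p. The median was -0.11 without meKO HFD replicate 2 and also changed sign with voom quality weights. Rpl3 stood at 25.7, 26 and 21.3 CPM in WT HFD against 52.2, 61.1 and 46.9 CPM in meKO HFD (1.13 ± 0.25; edgeR adjusted p = 0.214), and 58.4% of its 50-base words occur in other genes. Of 26 genes of the unfolded protein and stress response, Xbp1 and Pdia4 were higher at that p (median 0.14, and -0.01 without meKO HFD replicate 3), and of 36 cell cycle and 33 autophagy genes 0 reached that p. Of the 36 function lists, 4 held a gene that passed, 1 each: ribosomal proteins (Rpl29), iron and heme (Alas1), lysosome (Hyal1) and Rabs (Rab3d).

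**Figure D5:**
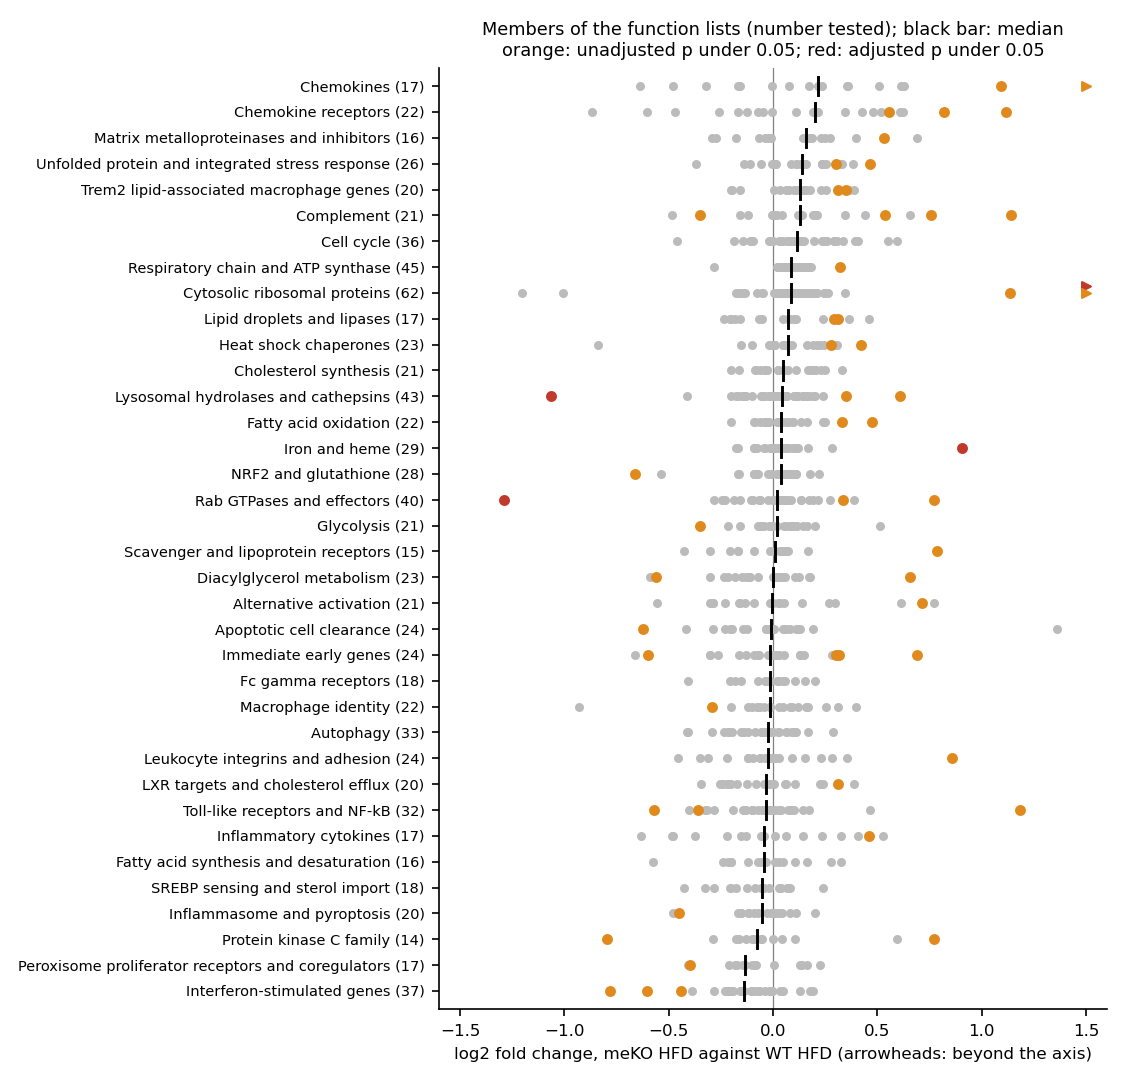
Log2 fold change, meKO HFD against WT HFD, of each tested member of 36 function lists (points; number tested in brackets), with the list's median as a black bar; orange marks an unadjusted p under 0.05, red an adjusted p under 0.05, and arrowheads values beyond the axis. The medians lie between -0.14 and 0.22, and the red points stand alone in their lists.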

How the data were processed

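RNA of thioglycolate-elicited macrophages was extracted with Trizol and made into TruSeq libraries, per the labels. The authors deposited a single table holding raw counts, whole numbers, for each gene in each library. The submitters' processing notes name mm10 and DESeq2, and the aligner, counter and strand setting are not given in the sources used here. Genes without a symbol (186) held 0.440% of the counts.

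Groups came from sample titles. The test was that of edgeR 4.0.16, run under R 4.3.3 (TMM, filterByExpr, which kept all 12339 genes, robust quasi-likelihood F test, 2-sided) with 1 mean per group over 12 libraries, and a gene passed when its p, adjusted after Benjamini and Hochberg over all genes, was under 0.05. The SE is the log2 fold change divided by the square root of F. CPM are TMM-scaled. Pairs of replicates differed by a chi-square of at least 16.9 per degree of freedom, so no library was a copy of another of its group. Pairs across groups were not compared in this way. Scripts were tested on simulated data. Positions were taken from RefSeq on GRCm38.p6, found for 12103 genes, and shared 50-base words from GENCODE M21 transcripts, counting the longest transcript of each gene.

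The named genes were those that passed, the 8 largest changes each way among the others with a mean of at least 1 CPM, an unadjusted p under 0.05 and separate groups, the 2 smallest p of each list, and Prkce, Lyz2, S100a8, S100a9, Abca1, Abcg1, Apoe, Cd36, Xist and Ddx3y. Further names are members counted in a list or were chosen after their values were seen. Members and lists were chosen with earlier results of these data known. Values of 2 list members are not reported here. Alternatives were other scaling factors, filters, DESeq2 1.42.0, limma-voom 3.58.1 with and without library quality weights, non-robust dispersions, the 6 HFD libraries alone, a length and GC correction, leaving out each library, and, added after seeing the data, summed counts of near-identical copies.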

Additional observations from a re-analysis of the deposited data

Results flagged for a closer look

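The genotype difference on HFD differed from that on chow, by the interaction test over all genes, for 2 genes. For Rpl29 the difference between the diets was 4.24 ± 0.31 on the log2 scale (SE; edgeR adjusted p = 2.53e-05), with WT HFD at 6.51 to 6.89 CPM and the other 9 libraries between 67.2 and 322 CPM. It was 0.10 ± 0.25 (adjusted p = 0.933) when the counts of Gm8210 were added. For the unnamed gene Entrez 100504629 the fitted difference was 6.48 ± 0.78 (adjusted p = 0.00574), a value that depends on counts near 0, since no WT HFD library held more than 1 count. Of its 20 alternatives with a value, which include the unfiltered fit that repeated the main one, 19 passed, with adjusted p from 1.39e-05 to 0.0521.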

How the results depend on the processing

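The count of 10 genes for meKO HFD against WT HFD was 53 with DESeq2, 144 with voom quality weights and 34 with the 6 HFD libraries alone, which held all 10. A correction for length and GC gave 14, and library totals gave 8, and in both 50% were higher in place of 60%. Leaving out 1 library gave 3 to 16 genes: 3 without any WT HFD library, 4 without meKO HFD replicate 2 or 3 and 16 without WT chow replicate 1. The 2 genes of the interaction became 15 with DESeq2, 393 with voom quality weights, 4 after correction for length and GC, 1 where 10 counts were required in every library, 1 with near-identical copies summed, and 1 to 56 when 1 library was left out (56 without WT chow replicate 3, 5 without meKO HFD replicate 1, 4 without meKO HFD replicate 2, 1 without WT HFD replicate 1). Apart from fewer libraries or genes, the cause was not tested. The tallies that follow count the unfiltered fit, which repeated the main one, since filterByExpr had dropped no gene. Rpl29 and Rab3d passed in 22 of 22 alternatives with the copies apart and Entrez 100504629 in 21 of 21. S100a9 passed in 17 of 21, Abhd14b in 17 of 22, Hyal1 in 16, Nudt16, Alas1 and Entrez 100503055 in 15 and Dusp7 in 12, and these 7 did not pass without any 1 of the WT HFD libraries. The 34 genes with the HFD libraries alone were out of 12330 tested. Of these 34, 11 lay on chromosome 17 (1.69% of its 650 tested genes) and 8 on chromosome 9 (1.23% of 653). When 1 library was left out, values near 0 changed sign: Abcg1 ran from -0.0291 (without WT HFD replicate 3; -0.0287 without meKO HFD replicate 1) to 0.152, Apoe from -0.0573 (without meKO HFD replicate 2; -0.0205 without WT HFD replicate 2) to 0.150, Cd36 from -0.0293 (without meKO HFD replicate 2; -0.0253 without WT HFD replicate 1) to 0.230, and Ddx3y from -0.00932 (without WT HFD replicate 2; -0.00319 without meKO HFD replicate 2) to 0.0658. No paired analysis was possible because the library numbers are in accession order and pair nothing across the groups. Genes under 1 CPM rest on few counts, and 3 libraries per group limit every test.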

Other observations

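With the 6 HFD libraries alone, 34 genes passed, and several belong to groups not described above. Pdgfb, a growth factor for mesenchymal cells, stood at 23.9, 30.1 and 27.4 CPM in WT HFD against 14.6, 12.1 and 13.5 CPM in meKO HFD (log2 fold change -1.01 ± 0.18 in the fit of all 12 libraries; edgeR adjusted p = 0.0551, and 0.0129 with the HFD libraries alone). On chow its log2 fold change was -0.82. Pirb, an inhibitory receptor of myeloid cells that binds class I molecules, stood at 551, 595 and 645 CPM in WT HFD against 393, 309 and 361 CPM in meKO HFD (-0.75 ± 0.14). Its adjusted p was 0.0423 with the HFD libraries alone and 0.0923 in the fit of all 12, and on chow its log2 fold change was 0.07. H2-DMa, a chaperone of class II peptide loading, stood at 25, 23.3 and 27.9 CPM against 41.1, 50.7 and 39.5 CPM and passed with the HFD libraries alone (0.78; adjusted p = 0.0467). These genes were chosen after their values were seen.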
